A study of Drosophila melanogaster with 27 samples.

Results

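Long noncoding and antisense RNA genes of Drosophila melanogaster were followed in the larval ovary while terminal filaments form. Candidates were the 1956 genes, of 16257 in the count tables, that carry a FlyBase symbol of the lncRNA: or asRNA: class and are neither pseudogenes nor rRNA genes. Of these, 270 were selected on their measured level: a mean of at least 5 CPM (counts scaled to the total of the library, without further scaling) in 1 or more of the 9 groups of libraries. The 270 members comprised 161 antisense RNA genes, 94 lncRNA genes known by a CR number and 15 lncRNA genes with a name. The other 1686 candidates stayed under the threshold, and 242 of them had no count in any library. Since the level chose the members, the levels themselves are a description, and the counts of called members are set beside the share of all tested genes that was called.

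Long noncoding RNAs are transcripts without a recognised protein product. Some act as RNA, as roX1 does on the male X chromosome or Hsromega in nuclear speckles, and others are mainly the precursors from which miRNAs, snoRNAs or piRNAs are cut. Antisense RNA genes lie across another gene on the opposite strand, so that their reads can be assigned only with knowledge of the strand, and for most of those in the fly no function is known. In the ovary the best studied case is flamenco, a piRNA cluster of somatic follicle cells whose transcript supplies small RNAs against transposons.

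The 27 poly(A)-selected libraries came from whole ovaries of Oregon R, from GFP-positive somatic cells and from GFP-positive germ cells, each at 72, 96 and 120 h AEL (after egg laying; early, mid and late, the last being white pupae), with 3 libraries per group. Sorted cells came from UAS:Green Stinger females crossed to bab:GAL4 males (somatic) or nos:GAL4 males (germ), and the nos:GAL4 line also carried UAS-Dcr-2, so that tissue and paternal line cannot be told apart. Green Stinger is a nuclear GFP, bab:GAL4 marks somatic cells of the larval ovary and nos:GAL4 marks germ cells. Each library was made from pooled ovaries or from pooled sorted cells. In such bulk samples fewer cells of a type and less RNA per cell cannot be told apart, and the p-values measure the spread between pools.

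The libraries held between 9680615 and 72875881 counts, so that 3 counts, the floor used for a gene at 0, were worth between 0.0412 and 0.31 CPM per library. Germ cell markers (7 genes, among them vas and aub) summed to between 2587 and 5189 CPM in germ libraries and to between 11.3 and 43.7 CPM in somatic libraries. Ovarian somatic markers (bab1, bab2, tj, tai and ap) summed to between 902 and 1452 CPM in somatic libraries and to between 105 and 881 CPM in germ libraries. Of these 5 genes 3 were called lower in germ cells and none higher. The means of bab1 were 34.0, 75.6 and 55.2 CPM in somatic early, mid and late and 27.6, 68.0 and 65.2 CPM in germ cells. The paper proposes that some somatic cells might be included in some germ libraries. Fat body genes summed to between 6317 and 70994 CPM in whole ovaries and to at most 76.4 CPM in all sorted libraries except germ mid replicate 1, which had 2797 CPM. That library was also the shallowest of all, and only 174 of the 270 members had counts in it. Members together took between 0.297% and 1.1% of the counts of a library.

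Germ mid was the group in which members passed the threshold most often. It had 184 members at 5 CPM or more, against 158 in germ early, 147 in germ late, between 120 and 125 in the somatic groups and between 78 and 90 in the whole ovary groups. For 75 members a single group reached the threshold, and for 35 of these it was germ mid. At the other end, 47 members were at 5 CPM or more in all 9 groups, and 74 had counts in all 27 libraries. Germ libraries alone brought 84 members over the threshold, somatic libraries alone 26 and whole ovaries alone 8.

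The germ mid levels rested in part on single libraries. In 15 members over 90% of the highest group's sum came from 1 library, and in 14 of them that group was germ mid. Leaving out germ mid replicate 1 would remove 17 members and add 15, leaving out replicate 4 would remove 10 and replicate 3 would remove 6, whereas no library outside this group would remove more than 3. Without all 3 germ mid libraries 235 genes would be members. asRNA:CR45818 was one of these 15, with 0, 4.05 and 122 CPM in the 3 germ mid libraries. It is named here after its values were seen.

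**Figure D1:**
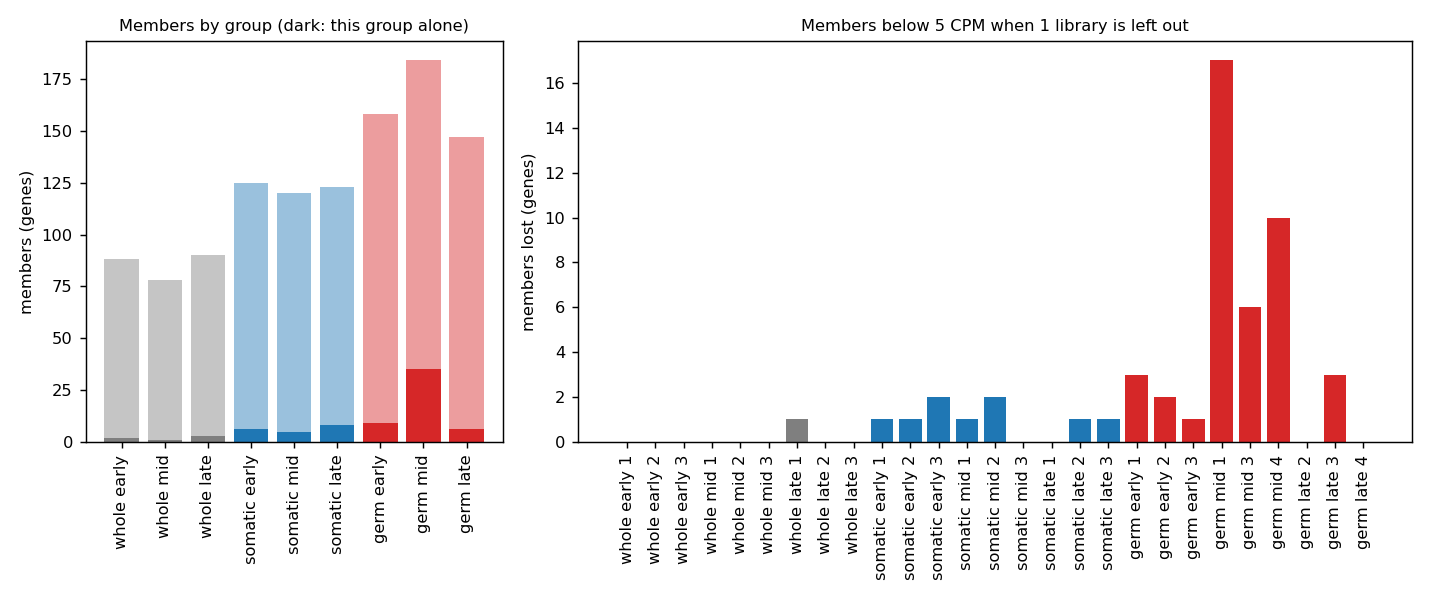
Left, number of members with a group mean of 5 CPM or more in each tissue and stage, with the dark part for members that reached it in that group alone; right, number of members that would fall below 5 CPM if the library named on the axis were left out. Germ mid had the most members (184) and the most that no other group brought in (35), and leaving out germ mid replicate 1 would remove 17.

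At the threshold itself the nearest members inside were asRNA:CR45151 (5.004 CPM in germ mid), asRNA:CR45213 (5.007 CPM in germ late) and lncRNA:CR32582 (5.09 CPM in germ mid). The nearest candidates outside were lncRNA:CR45755 (4.998 CPM in somatic mid), asRNA:CR45210 (4.973 CPM in somatic early) and asRNA:CR45190 (4.969 CPM in whole ovary early). asRNA:CR45151 had 0, 3.08 and 11.9 CPM in germ mid, and lncRNA:CR45755 had 5.8, 5.34 and 3.84 CPM in somatic mid. The candidate just outside was thus the steadier of these 2.

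Most members shared exon sequence with another gene. All 161 antisense RNA genes, 36 of the 94 numbered lncRNA genes and 6 of the 15 named ones overlapped an exon of another gene, 203 members in all, and in 17 the whole exon length was covered. The overlap was on the opposite strand in 186 members and on the same strand in 33. In the median antisense gene it covered 79.4% of the exon length. The strand setting of the authors' counting is not given in the sources used here, so reads of an antisense RNA and of its partner cannot be told apart with certainty, and on the same strand they are divided by the estimate of RSEM. Exon length had a median of 1280 bases in members, against 667 in candidates under the threshold; CPM rises with length, so longer genes reach the threshold at a lower level per kb. Members had between 1 exon (136 members) and many, lay on X (50), 2L (38), 2R (46), 3L (67), 3R (63) and 4 (6), and in 2 of them, lncRNA:CR46472 and flam, over 50% of the exon length was annotated as transposon.

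Per kb of exon, the median over the 9 groups was 3.79 CPM in members. It was 5.44 CPM in the 13057 protein-coding genes with counts. Members had to reach 5 CPM in a group, while these protein-coding genes needed only a count. The medians are therefore a description and no comparison of the classes. A handful of members stood far above the median of the members. lncRNA:CR34335 (X:3545750-3546110, minus strand, 361 bases, inside an intron of DIP-alpha; all positions are from the Release 6 assembly) led with 1918 CPM per kb. lncRNA:CR40469 (X:122493-122706, plus strand, 214 bases) followed with 1419, lncRNA:CR42491 with 1192 and lncRNA:CR42862 with 298 CPM per kb. The next 6, with between 37.8 and 60.2 CPM per kb, were asRNA:CR44910, asRNA:CR46262, lncRNA:CR45102, lncRNA:CR45197, asRNA:CR45926 and lncRNA:CR42549.

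The leading 2 varied widely between libraries of a group. CR34335 had 545, 925 and 841 CPM in whole ovary early, 1018, 1187 and 1393 CPM in mid and 4707, 965 and 1260 CPM in late, the first late library alone being far above the rest. In the 9 somatic libraries it ranged from 61.8 to 324 CPM with a median of 111 CPM. In the 9 germ libraries it ranged from 139 to 1478 CPM with a median of 307 CPM, so the tissues overlapped, although germ cells were higher over all stages (log2 fold change 1.67 ± 0.40 SE, edgeR adjusted p = 0.00399, lost in 7 of 18 fits without a library). CR40469 had 0 CPM in germ mid replicate 4 and 574 CPM in germ mid replicate 1. It was called in none of the comparisons of stages and not between germ and somatic cells over all stages, where its adjusted p was 0.195. asRNA:CR46262 had between 22.4 and 32.5 CPM in whole ovaries and between 4.6 and 39.9 CPM in sorted cells.

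Germ cells and somatic cells differed in 44 members over all stages. The test was the quasi-likelihood test of edgeR, with p-values adjusted by Benjamini-Hochberg over 11243 genes and an adjusted p under 0.01 as the threshold throughout, and in it 23 of 265 tested members were higher in germ cells and 21 were higher in somatic cells. That is 16.6% of the members, beside 25.3% of all tested genes, of which 12.7% were higher and 12.6% lower in germ cells. By stage the counts were 7 higher and 2 lower in germ cells at early (4.79% of all genes were called), 7 and 6 at mid (7.47%) and 6 and 2 at late (7.84%). In 16 tested members the 9 germ and the 9 somatic libraries did not overlap, beside 7.01% of all tested genes. The median log2 difference was 0.12 in members and 0.02 in all genes. Without germ mid replicate 1 the count over all stages was 60, and leaving out any other single library gave between 31 and 56. At mid it fell to between 5 and 7 without 1 of the somatic mid libraries and rose to 20 without germ mid replicate 4. At late it was 15 without germ mid replicate 1, 16 without germ mid replicate 4, and 4 or 5 without germ late replicate 2 or 3 or somatic late replicate 2 or 3.

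The 114 members that reached 5 CPM in a whole ovary group give a count for which no sorted library was used in the choice. Of the 111 tested, 6 were higher and 16 lower in germ cells, 19.8% in all, again below the share of all genes. The median log2 difference of these members was -0.29. Members named below that reached 5 CPM in germ groups alone or in somatic groups alone were chosen by libraries that this test uses.

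**Figure D2:**
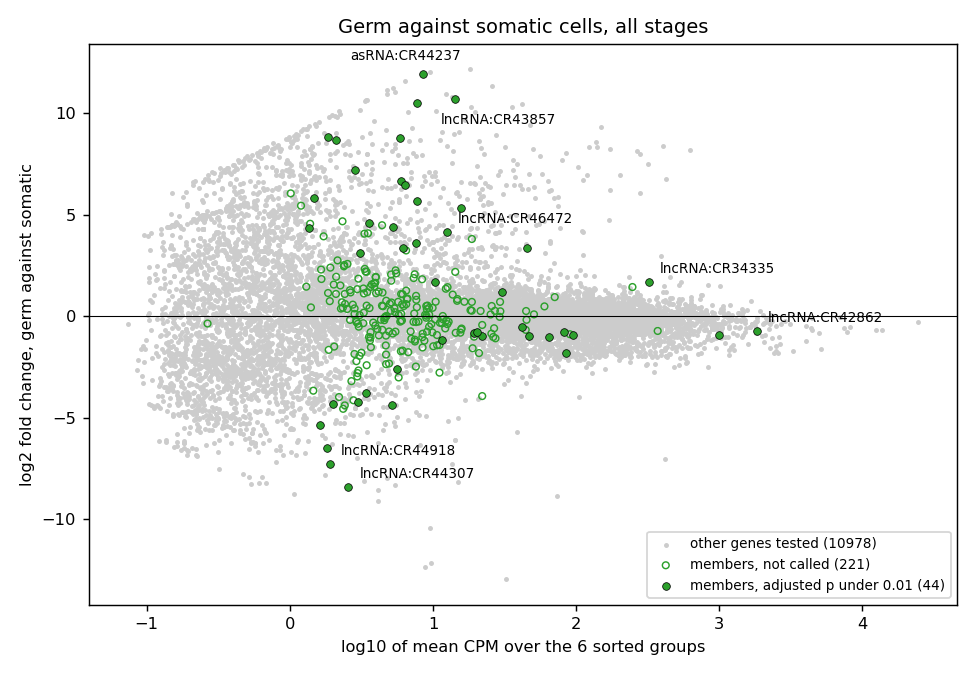
Log2 fold change of germ against somatic cells over all stages (y axis) against the log10 of the mean level over the 6 sorted groups (x axis) for every tested gene; grey points are the other genes, open green points are members not called and filled green points are the 44 members at an adjusted p under 0.01. Members with the largest differences lie at low and middle levels, while CR42862 is abundant and differs little.

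lncRNA:CR43857 (2L:7423820-7425932, plus strand, exon sequence shared with no other gene) is the transcript that holds the miRNA precursor mir-275. Its 9 germ libraries had 2.4, 35.2 and 26.5 CPM at early, 20.7, 25.3 and 39.1 CPM at mid and 43.6, 34.3 and 29.7 CPM at late. In somatic cells it was at 0 in all early and mid libraries and between 0.177 and 0.237 CPM at late, and whole ovaries had between 0.0941 and 0.731 CPM. The lowest germ library was thus above every other library of the series. The 7 germ cell markers summed to between 619 and 1282 CPM in whole ovaries and to between 2587 and 5189 CPM in germ libraries. Relative to germ libraries, CR43857 was thus lower in whole ovaries than these markers were. Whole ovaries were Oregon R and germ cells were sorted from the nos:GAL4 cross with UAS-Dcr-2, and the parts of strain and handling cannot be told apart. Over all stages germ cells were at 28.5 ± 12.1 CPM (SD, n = 9 libraries) and somatic cells at 0.0697 ± 0.106 CPM (edgeR adjusted p = 1.92e-07). Against the floor of 3 counts over the somatic libraries of the stage, germ cells were at least 992-fold higher at early and at least 1173-fold higher at mid. At late, where neither tissue was at 0, the log2 fold change was 6.98 ± 0.93 (SE, edgeR adjusted p = 0.000423).

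asRNA:CR44237 (3R:14109286-14110726, minus strand) lies across Or88a, an odorant receptor gene, which overlaps 81.5% of its exons. Germ libraries had 17.6, 9.28 and 14.6 CPM at early, 14.7, 23.5 and 38.0 CPM at mid and 10.4, 10.5 and 14 CPM at late, and all 9 somatic libraries had none. Set against the floor of 3 counts over the 9 somatic libraries (0.00949 CPM), germ cells were at least 1786-fold higher (edgeR adjusted p = 2.02e-07). Or88a itself had counts in 3 germ libraries, of at most 5.33 CPM, and in 1 somatic library. Counts stood on the antisense RNA in every germ library, also in those where its partner was at 0. The strand setting of the counting is not known, and how shared reads were divided between these genes was not tested. The 5.33 CPM of Or88a stood in germ early replicate 2, where the antisense RNA had 9.28 CPM. Whole ovaries had between 0.558 and 3.66 CPM.

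A further 4 germ-high RNAs shared no exon sequence with other genes. lncRNA:CR43961 (X:12067200-12070139, minus strand, within introns of Ten-a on the other strand) had between 6.61 and 25.9 CPM in germ libraries and counts in 1 somatic library only, at 0.164 CPM (edgeR adjusted p = 2.75e-06). lncRNA:CR43870 (3L:17245882-17264290, plus strand) was at 12.2 ± 5.8 CPM in germ and 0.495 ± 0.59 CPM in somatic cells (edgeR adjusted p = 1.63e-06), with none in the 3 somatic early libraries, and its log2 fold change at mid was 4.79 ± 0.91 (SE, edgeR adjusted p = 0.00278, lost without any one somatic mid library). lncRNA:CR46481 (2R:2862767-2866470, plus strand) was at 30.6 ± 12.7 against 0.77 ± 0.68 CPM (log2 fold change 5.32 ± 0.71 SE, edgeR adjusted p = 2.99e-05). In each of these RNAs the lowest germ library was above the highest somatic one.

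The last of the 4, lncRNA:CR46472 (X:21520175-21527105, plus strand), is annotated as transposon sequence over its whole length. Its reads can therefore match other copies, and RSEM divides such reads among genes. It had 34.0, 22.8 and 19.8 CPM at early, 17.8, 36.6 and 36.7 CPM at mid and 18.2, 18.8 and 10.8 CPM at late in germ cells, against 1.09 ± 0.709 CPM in somatic cells (log2 fold change 4.15 ± 0.37 SE, edgeR adjusted p = 3.64e-07). The whole ovary means lay between those of the sorted tissues, with 8.0, 6.79 and 5.02 CPM at early and 2.75, 1.92 and 2.23 CPM at late.

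Somatic-high members were of 2 kinds. Some were rare and nearly missing from germ cells. lncRNA:CR44307 (2L:20847844-20848143, minus strand, in an intron of CG31676 on the other strand) had 8.79, 9.68 and 7.93 CPM in somatic early, 3.9, 5.25 and 2.55 CPM in mid and 2.19, 2.94 and 2.25 CPM in late, and counts in 2 germ libraries only, both late and at most 0.56 CPM. The 2 tissues did not overlap (edgeR adjusted p = 3.31e-05). lncRNA:CR44918 (2L:21864946-21866291, minus strand) had 6.46, 5.95 and 7.71 CPM in somatic late and at most 3.53 CPM in the other somatic libraries, 1 of which was at 0, against at most 0.978 CPM in germ cells (edgeR adjusted p = 0.000379). The fitted log2 fold changes of both rest on groups at 0 and are no measure of size.

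**Figure D3:**
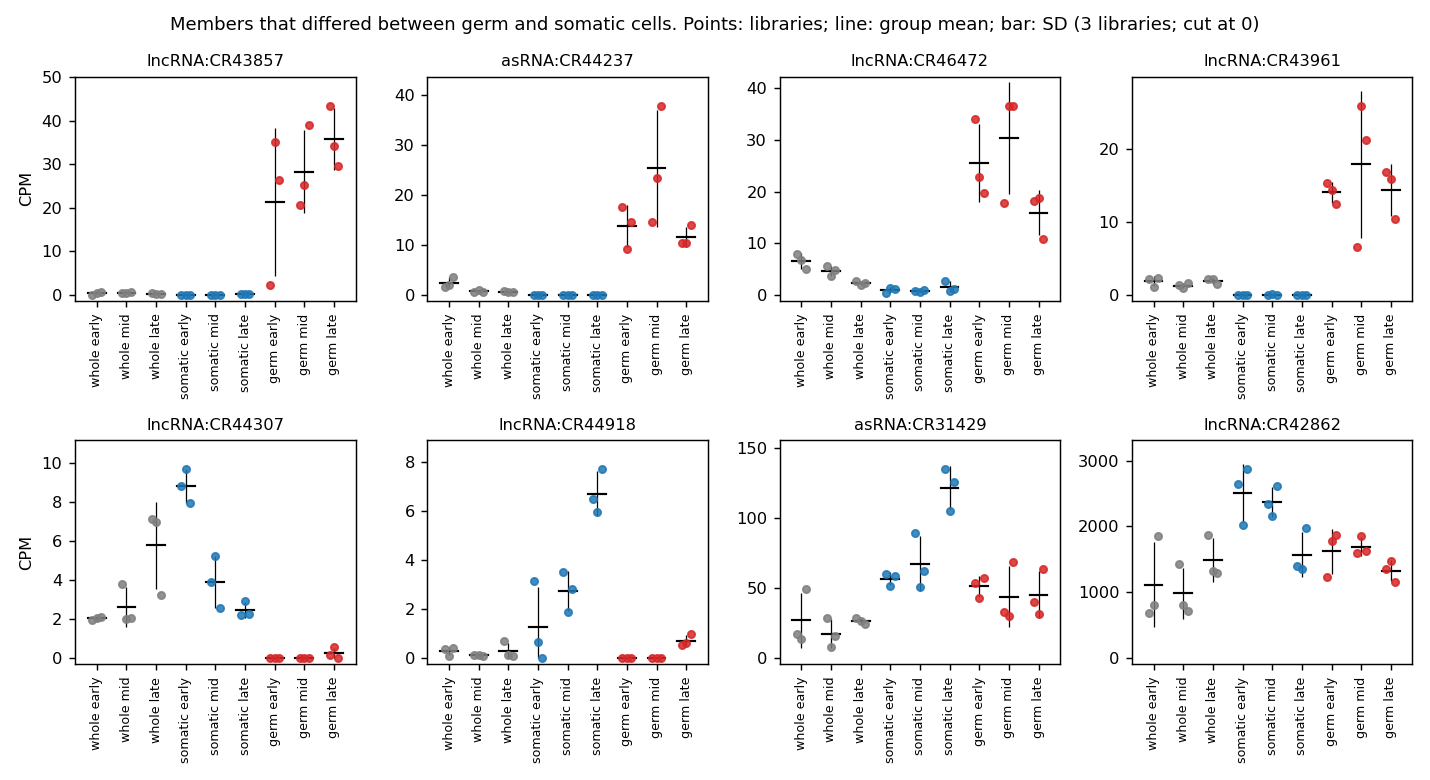
CPM in each library (points) of 8 members named for a difference between germ and somatic cells, by tissue and stage; black lines are group means and bars SD over 3 libraries. CR43857, CR44237 and CR43961 are high in the germ groups alone, and CR46472 is highest there and lower in whole ovaries. CR44307 and CR44918 are at or near 0 in the germ groups, and CR31429 and CR42862 differ by less than their whole range.

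Others were abundant in both tissues and differed by less. lncRNA:CR42862 (3L:224106-230964, plus strand) had between 1354 and 2873 CPM in somatic and between 1155 and 1871 CPM in germ libraries (log2 fold change -0.74 ± 0.14 SE, edgeR adjusted p = 0.000504). It was the most abundant of the longer members. asRNA:CR31429 (3R:9022057-9024018, plus strand) lies across neur, which encodes a ubiquitin ligase of Notch signalling, and 88.4% of its exons are shared with it. It had 60.2, 51.4 and 59.0 CPM in somatic early, 89.2, 51.2 and 62.5 CPM in mid and 135, 105 and 126 CPM in late, against between 29.9 and 69.0 CPM in germ cells (log2 fold change -1.05 ± 0.17 SE, edgeR adjusted p = 0.000159). neur was not called between the tissues. lncRNA:CR43685 (27.2 ± 7.46 CPM in somatic, 17.1 ± 6.35 CPM in germ cells, edgeR adjusted p = 0.000482) differed likewise, with overlap between the tissues.

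asRNA:CR44872 (2L:9959248-9960232, minus strand) was called between the tissues over all stages and, among single stages, at mid alone. It had 5.29, 3.58 and 9.0 CPM in somatic early, 10.1, 5.61 and 4.69 CPM in mid and 9.1, 11.2 and 5.67 CPM in late. Germ cells had 3.73, 0.777 and 4.77 CPM at early, none in the 3 mid libraries and 9.9, 5.08 and 4.04 CPM at late. At mid somatic cells were 126-fold above the floor of 3 counts over the 3 germ libraries (edgeR adjusted p = 0.000183), while at early and at late the tissues overlapped. All of the exon of CR44872 lies inside exons of CG5850 on the same strand, which had 52.0, 57.0 and 91.9 CPM in germ mid. The split of reads between these 2 genes was set by the estimate of RSEM. The fold at mid therefore covers counting error only and is no bound on the difference.

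In the whole ovary 1 member changed between early and mid and 16 between mid and late. From early to mid 1 of 244 tested members rose and none fell, beside 0.994% of all 10060 genes. From mid to late 6 rose and 10 fell, 6.56% of the members, beside 14.8% of all genes, of which 5.76% rose and 9.07% fell. Without whole ovary early replicate 3 the latter count was 35, and without mid replicate 2, mid replicate 3 or late replicate 1, 2 or 3 it was 4, 6, 6, 3 or 10. The median log2 change from mid to late was 0.27 in members and -0.11 in all genes, a shift of all genes that was -0.03 with RLE size factors and 0 with DESeq2.

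Of the 262 members that reached 5 CPM in a sorted group, and so did not need whole ovaries to be chosen, 236 were tested in whole ovaries. From mid to late 5 rose and 8 fell, 32 in all were called without early replicate 3, and 4, 6, 4 or 2 without mid replicate 2, mid replicate 3, late replicate 1 or late replicate 2. From early to mid none was called by edgeR and 6 were by DESeq2, which called 6.32% of all genes there, and 31 of the 244 tested members had an unadjusted edgeR p under 0.05 (12.7%, beside 21.3% of all genes).

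asRNA:CR11538 was the only member called from early to mid. It reached 5 CPM in whole ovary mid alone, so the libraries that chose it are also those of the test. It lies opposite Lsp2 (3L:12129103-12131488, minus strand), a larval serum protein gene of the fat body, with 87.8% of its exon length shared. Whole ovaries had 0.205, 0.112 and 0 CPM at early, 18.3, 37.7 and 42.3 CPM at mid and 2.96, 6.47 and 1.84 CPM at late. The mid libraries were above all others (log2 change 8.57 ± 0.88 SE, edgeR adjusted p = 0.00305, and from mid to late -3.37 ± 0.62 SE, adjusted p = 0.00391). Without early replicate 2, mid replicate 3 or late replicate 1 the rise was no longer called, with an adjusted p of at most 0.021. In sorted cells it had counts in 3 of 18 libraries, of at most 2.99 CPM. Lsp2 had 1.63, 1.07 and 11.4 CPM at early, 4387, 7025 and 8830 CPM at mid and 1156, 1458 and 959 CPM at late, and rose with its partner from early to mid (log2 change 10.59, edgeR adjusted p = 0.00282). Per kb the antisense RNA stood at 0.504% of Lsp2 at mid and at 0.327% at late. The fat body genes summed to between 17172 and 22264 CPM at early and to between 34394 and 70994 CPM at mid, with 5 of the 9 called higher and none lower. The means of apolpp (15367 CPM at early, 3849 CPM at mid) and Apoltp (1621 and 393 CPM) were lower at mid. Whether reads of Lsp2 were counted on the antisense gene was not tested.

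asRNA:CR44910 fell from mid to late with the smallest p. It covers 401 bases (2L:21163871-21164271, minus strand) inside an exon of Noc2, which encodes a nucleolar protein of ribosome assembly. Whole ovaries had 16.8, 15.3 and 18.9 CPM at early, 13.7, 13.9 and 15.9 CPM at mid and 3.23, 3.22 and 3.5 CPM at late, so that the late libraries were below all others (log2 change -2.37 ± 0.18 SE, edgeR adjusted p = 4.03e-05). The call held without any single library. Somatic cells did the same, with 14.5, 12.0 and 37.8 CPM at mid and 4.79, 4.09 and 5.14 CPM at late (-2.04 ± 0.40 SE, edgeR adjusted p = 0.00583, no longer called without somatic early replicate 1, mid replicate 3 or any late replicate). Germ cells at late kept 26.9, 42.4 and 31.8 CPM, above somatic cells at that stage (2.43 ± 0.48 SE, edgeR adjusted p = 0.00264). Noc2 fell in somatic cells (-1.23, edgeR adjusted p = 0.00371) and was not called in whole ovaries.

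Among the other members that fell from mid to late, lncRNA:CR44889 (X:19712934-19713821) went from 7.91, 6.39 and 6.19 CPM to 1.78, 2.02 and 2.26 CPM (log2 change -1.96 ± 0.23 SE, edgeR adjusted p = 0.000347). It shares 13.5% of its exon length with meso18E, which fell as well (-2.08, edgeR adjusted p = 8.3e-06). asRNA:CR46074 (2L:7724576-7724976), whole inside an exon of CG13795 on the other strand, went from 2.46, 7.23 and 5.26 CPM to 0.52, 0.0457 and 0.0974 CPM, and CG13795 from 8.57, 24.6 and 15.7 CPM to between 0.46 and 0.611 CPM. Both were missing from nearly all sorted libraries: the RNA had counts in 1 of 18. Fat body genes summed to between 34394 and 70994 CPM in whole ovary mid and to between 6317 and 11202 CPM in late. Of the 9 genes, 5 were called lower at late and none higher, while the mean of Fbp1 was 415 CPM at mid and 6234 CPM at late. Of 5 hemocyte genes 1 was called lower and none higher. The part of such tissue in the falls from mid to late was not tested.

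asRNA:CR45714, opposite Hayan, a serine protease gene of the melanization response, went from 14.3, 17.5 and 14.9 CPM to 5.49, 6.29 and 8.17 CPM (log2 change -1.46 ± 0.25 SE, edgeR adjusted p = 0.00273), and Hayan fell too (-2.78, edgeR adjusted p = 0.00212). asRNA:CR44031, on chromosome 4 opposite Mpv17, went from 29.2, 37.0 and 43.1 CPM to 9.33, 11.8 and 18.4 CPM, and asRNA:CR46485, which overlaps Jheh2, a juvenile hormone epoxide hydrolase gene, from 18.6, 26.5 and 17.3 CPM to 6.46, 8.35 and 8.48 CPM. Mid and late libraries overlapped for none of these 3 RNAs. Mpv17 and Jheh2 were not called from mid to late, with an adjusted p of 0.0114 for Jheh2.

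Members that rose from mid to late included RNAs of known loci. lncRNA:CR45102 (X:3701857-3703285) went from 15.6, 9.22 and 11.3 CPM to 72.5, 66.0 and 47.8 CPM (log2 change 2.16 ± 0.36 SE, edgeR adjusted p = 0.00259), and in somatic cells it had 118, 65.6 and 50.9 CPM at mid and 181, 135 and 231 CPM at late. lncRNA:marge went from 0.0893, 0.0515 and 0 CPM to 4.48, 5.62 and 3.65 CPM (6.22 ± 1.03 SE, edgeR adjusted p = 0.00234), with 15.1, 14.4 and 13.5 CPM in somatic late. lncRNA:CR46006, which holds mir-276a, went from 0.223, 0 and 0.146 CPM to 6.37, 4.66 and 3.82 CPM (5.04 ± 0.97 SE, edgeR adjusted p = 0.00503), with 5.5, 6.07 and 5.81 CPM in somatic late. In each the late whole ovaries were above all early and mid ones. asRNA:CR45789, opposite da, the gene of a widely used bHLH factor, went from 3.26, 2.78 and 2.34 CPM to 10.7, 10.7 and 8.72 CPM, but had up to 9.45 CPM at early.

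**Figure D4:**
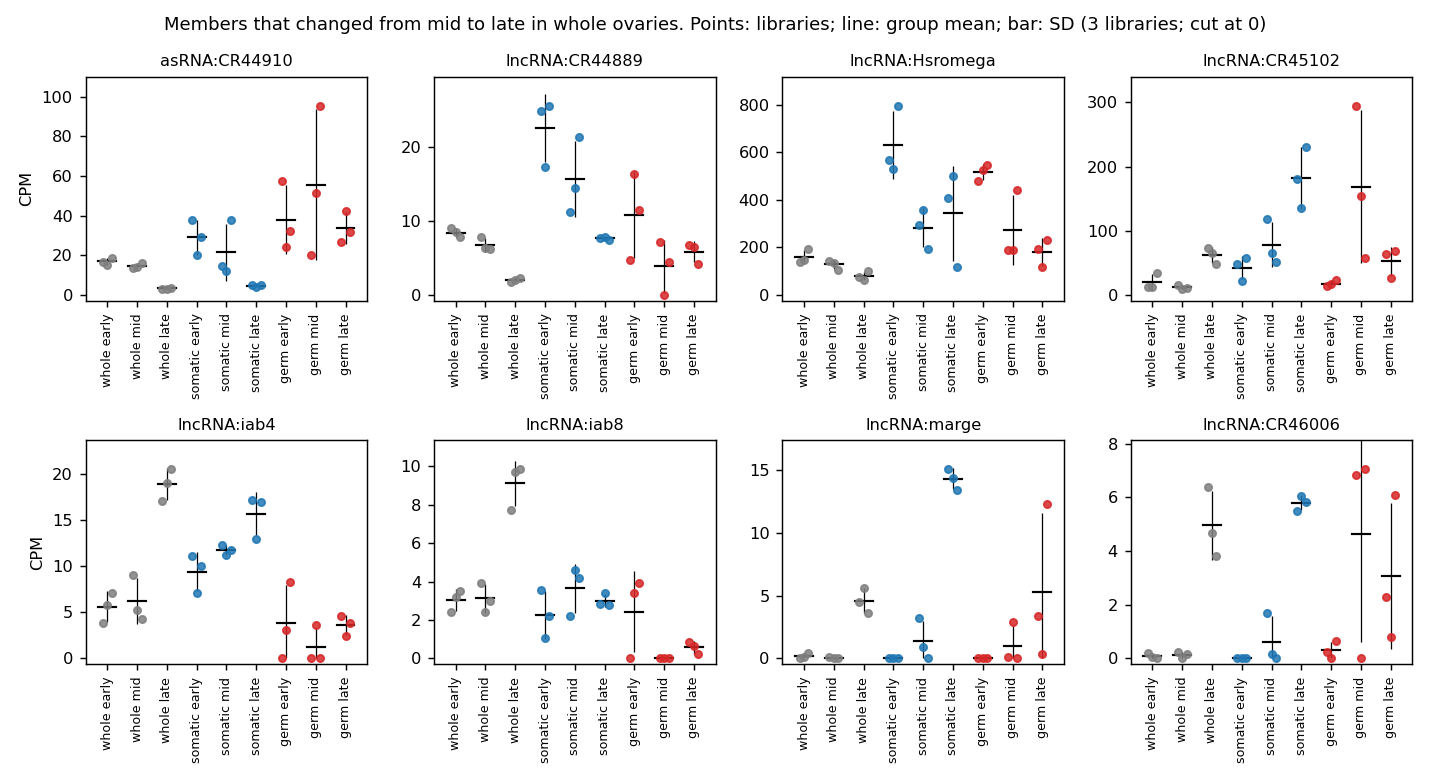
CPM in each library (points) of 8 members that changed from mid to late in whole ovaries, by tissue and stage; black lines are group means and bars SD over 3 libraries. CR44910, CR44889 and Hsromega are lower in whole ovary late, and CR45102, iab4, iab8, marge and CR46006 are higher there.

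The abdominal part of the Bithorax complex gave 2 of the 6 rising members. iab4 (3R:16850004-16856497, plus strand) and iab8 (3R:16831116-16923231, minus strand) are transcribed across each other, each holds a miRNA precursor (mir-iab-4 and mir-iab-8) that targets homeotic genes, and iab8 is known for its need in fertility. iab4 went from 9.02, 5.31 and 4.26 CPM to 17.1, 19.0 and 20.6 CPM (log2 change 1.41 ± 0.27 SE, edgeR adjusted p = 0.00521) and iab8 from 3.93, 2.42 and 3.0 CPM to 7.75, 9.71 and 9.87 CPM (1.33 ± 0.25 SE, edgeR adjusted p = 0.00453). The late libraries were above all earlier ones for both. iab8 reached 5 CPM in whole ovary late alone, so the libraries that chose it are also those of the test. The call of iab4 was lost in 5 of the 9 fits without a library, with an adjusted p of at most 0.0231, and that of iab8 in 6, with at most 0.0269, each time without a mid or a late library. In sorted cells iab4 had between 7.1 and 17.2 CPM in somatic and at most 8.31 CPM in germ libraries and was not called, and iab8 was at 2.98 ± 1.09 CPM in somatic and 0.999 ± 1.54 CPM in germ cells (edgeR adjusted p = 0.00308, tissues overlapping), and iab8 had no counts in the 3 germ mid libraries. Because 19.8% of the iab4 exons and 23.5% of the iab8 exons are shared between them, the 2 are not independent. In all, 55.4% of the iab8 exon length overlapped other genes, 1 on the opposite and 1 on the same strand. How reads were divided between iab8 and the gene on its own strand was not tested. Of the other homeotic complex RNAs bxd was at most 0.0151 CPM in any group.

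In sorted cells edgeR called 7 members between stages, all in somatic cells. In somatic cells 2 of 247 tested members rose and 1 fell from early to mid, beside 1.9% of all genes called, and 2 rose and 2 fell from mid to late, beside 6.56%. The first count was 0 without somatic early replicate 3 and 1 without early replicate 2 or mid replicate 1. The second was 0 without early replicate 1, mid replicate 3 or late replicate 1 or 3, and 1 without mid replicate 2 or late replicate 2. lncRNA:CR45939 was at 0 in somatic early and had 1.59, 16.3 and 9.19 CPM at mid, with a mean 420-fold above the floor of 3 counts over the early libraries (edgeR adjusted p = 0.0026, lost without early replicate 2 or 3, with at most 0.011). It reached 5 CPM in somatic mid alone, so the libraries that chose it are also those of the test. It shares 89.9% of its exons with ftz-f1, a nuclear receptor gene, on the same strand, and ftz-f1 was not called (130, 101 and 172 CPM at early, 103, 76.1 and 81.4 CPM at mid). RSEM divided the shared reads, so the fold of CR45939 covers counting error only and is no bound on the change. asRNA:CR46251, opposite Sap130, was at 0 at early and had 1.4, 2.28 and 2.18 CPM at mid (edgeR adjusted p = 0.00961), a call that was lost in all 9 fits without a library. asRNA:CR45926, opposite the histone chaperone gene Nap1, went from 88.4, 62.5 and 77.8 CPM to 28.4, 37.1 and 44.8 CPM (log2 change -1.10 ± 0.17 SE, edgeR adjusted p = 0.0039, lost without early replicate 1 or 3 or mid replicate 1 or 2).

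From mid to late in somatic cells asRNA:CR31429 (given above) rose by 0.98 ± 0.20 (SE) on the log2 scale and lncRNA:CR42549, which shares 4.93% of its exon length with mura, went from 122, 88.8 and 86.6 CPM to 161, 166 and 193 CPM (0.93 ± 0.19 SE, edgeR adjusted p = 0.00601). lncRNA:CR43459, the transcript that holds mir-277 and mir-34, went from 4.98, 7.67 and 11.4 CPM to 1.23, 1.53 and 1.66 CPM (-2.30 ± 0.44 SE, edgeR adjusted p = 0.00549). Stages did not overlap in any of these. The hemocyte list summed to between 9.49 and 64.5 CPM in somatic early and to between 1542 and 1819 CPM in somatic late. Nearly all of that sum was Pxn, a peroxidase of the extracellular matrix, while Hml, NimC1, eater and He had group means of at most 0.665 CPM in the somatic groups.

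In germ cells no member was called between stages by edgeR, which called 0% of all genes in either comparison. Of 257 tested members 39 had an unadjusted p under 0.05 in the first comparison (early to mid) and 26 in the second, 15.2% and 10.1% of the members beside 18.8% and 11.6% of all genes. DESeq2 called 22 members (15 higher and 7 lower at mid) beside 4.99% of all genes, and then 10 members (4 higher and 6 lower at late) beside 2.12%. The count by edgeR from early to mid rose to 7 without germ mid replicate 4. The smallest adjusted p belonged to lncRNA:CR45102 from early to mid, at 0.138, with 13.6, 17.2 and 22.7 CPM at early and 295, 153 and 58.4 CPM at mid, where the stages did not overlap.

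The change from early to mid did not differ between the tissues for any of 265 members by edgeR (0.0356% of all genes were called, and 43 members, 16.2% beside 12.8% of all genes, had an unadjusted p under 0.05), while DESeq2 called 23 members beside 3.2% of all genes. The count by edgeR was 4 without germ mid replicate 3 and 7 without germ mid replicate 4. The change from mid to late differed for 1 member, asRNA:CR44872, beside 0.276% of all genes (edgeR adjusted p = 0.00946, lost in 13 of 18 fits without a library). It rests on the 3 germ mid libraries at 0. The count was 2 without germ early replicate 1 or germ mid replicate 1, 4 without germ mid replicate 3 and 11 without germ mid replicate 4.

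Hsromega, the heat shock RNA that organises omega speckles, had the highest group mean CPM of the named RNAs. Its exon spans 21710 bases (3R:21296127-21317836), and CPM is not scaled to length. It had 568, 532 and 797 CPM in somatic early, 295, 359 and 195 CPM in mid and 410, 502 and 118 CPM in late. Germ cells had 480, 525 and 549 CPM at early, 190, 189 and 443 CPM at mid and 193, 117 and 232 CPM at late. Early was the highest stage on average in each tissue. In whole ovaries it fell from 143, 136 and 105 CPM at mid to 77.4, 63.5 and 98.8 CPM at late (log2 change -0.91 ± 0.17 SE, edgeR adjusted p = 0.00483), and the call was lost without mid replicate 1 or 2 or late replicate 1 or 2. The stage comparisons within somatic or germ cells were not called, and neither was the tissue difference (adjusted p = 0.0219). Whole ovary libraries had at most 192 CPM, and the sorted ones between 117 and 797 CPM; sorted and whole ovary libraries differ in strain and handling, which cannot be told apart.

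roX1, the RNA of the dosage compensation complex of males, was a member through 1 library. It had 24.6, 1.34 and 0 CPM in germ mid, and at most 5.42 CPM in any other library. Its 24.6 CPM stood in germ mid replicate 1, the library that also held 2797 CPM of fat body genes, and the part of those cells in it was not tested. roX2, the other RNA of that complex, was at most 0.271 CPM in any group. The transcripts of the proteins that act with roX RNAs, msl-1, msl-2, msl-3, mle, mof and Clamp, summed to between 245 and 687 CPM per library, and 1 of the 6 was higher in germ than in somatic cells, with none called between stages. msl-3 was at 0 in germ mid replicate 1, the library with the highest roX1 level. Male germ line genes (5 of the 9 listed were in the counts) summed to at most 25.6 CPM in any library. Of the 4 tested between the tissues 2 were higher in germ than in somatic cells.

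flam (X:21631891-21790731, plus strand) is annotated as transposon over 74.7% of its exons. It had 25.0, 27 and 16.7 CPM in somatic early, 23.1, 21.0 and 26.2 CPM in mid and 27.8, 28.9 and 45.5 CPM in late, so all 9 somatic libraries held at least 16.7 CPM. Germ cells had 2.11, 6.62 and 11.2 CPM at early, 29.1, 20.5 and 0 CPM at mid and 9.65, 7.66 and 12.8 CPM at late. At early and late every germ library was below every somatic one, while at mid 1 germ library exceeded all somatic ones of that stage. The tissue difference over all stages was not called (log2 fold change -1.58 ± 0.61 SE, edgeR adjusted p = 0.0504), and no stage comparison was.

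Hosts of small RNAs made up 16 members. Of 33 candidates that hold a miRNA precursor on their strand 14 were members, and 2 of the 14 tested were higher and 1 lower in germ cells over all stages (25.3% of all genes were called), and 3 of the 12 tested rose and 1 fell from mid to late in whole ovaries (14.8%). Besides mir-275 the higher one in germ cells was lncRNA:CR43651, which holds mir-14, a miRNA known for roles in cell death and metabolism. It had 1.29, 10.4 and 8.15 CPM in germ early, 0, 14.1 and 8.22 CPM in mid and 18.5, 18.4 and 11.4 CPM in late, against at most 1.38 CPM in somatic cells (log2 fold change 4.39 ± 1.09 SE, edgeR adjusted p = 0.00443, lost without somatic early replicate 2, mid replicate 3 or any late replicate). Polyadenylated reads on a host give the level of the precursor transcript and not of the miRNA.

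The bantam host, lncRNA:CR43334, holds the precursor of a miRNA that promotes growth. It had 48.2, 43.2 and 30.7 CPM in germ mid and 15.7, 10.5 and 11.2 CPM in somatic mid (log2 fold change 1.64 ± 0.37 SE, edgeR adjusted p = 0.00586, lost in 11 of 18 fits without a library). At late the germ libraries had 22.3, 22.2 and 21.7 CPM and the somatic ones between 9.29 and 9.62 CPM, again without overlap, whereas at early the tissues overlapped. Over all stages the difference was not called (edgeR adjusted p = 0.013). lncRNA:CR31044 (mir-279 and mir-996) had 37.1, 38.4 and 35.6 CPM in germ late and between 11.9 and 13.0 CPM in somatic late, but 0, 17.0 and 35.9 CPM in germ mid, and was not called. The hosts of mir-282, mir-8, mir-184, mir-315 and mir-281 were called nowhere among the main comparisons, and the host of mir-315, lncRNA:CR45388, rested on 15.3 and 5.77 CPM in 2 germ mid libraries. let7C, the host of let-7, mir-100 and mir-125, stayed under the threshold with 2.84 CPM in whole ovary late.

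The 2 snoRNA hosts overlap protein-coding genes on their own strand. lncRNA:CR42491 (X:762615-763810) holds snoRNA:Psi18S-531 and shares 50.5% of its exons with RpL22, a ribosomal protein gene. It had 494, 317 and 351 CPM in germ early and 1325, 532 and 930 CPM in somatic early, and over all stages germ cells were lower (log2 fold change -0.91 ± 0.20 SE, edgeR adjusted p = 0.00198) with overlapping libraries. In whole ovaries it had 171, 209 and 1281 CPM at early, 1 library being far above the others. lncRNA:CR45184 holds 5 snoRNAs and shares 94.7% of its exons with Sf3b3, a splicing factor gene; it ranged from 5.81 to 172 CPM over all libraries and was called nowhere among the main comparisons.

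The remaining named RNAs were mostly at low level and in few groups. cherub, known from asymmetric division of neuroblasts, reached 6.16, 21.8 and 25.0 CPM in whole ovary early, had at most 1.12 CPM at late (edgeR adjusted p from mid to late = 0.0105, not called) and had counts in only 4 sorted libraries. yar, a cytoplasmic RNA known from sleep regulation, had 16.9, 14 and 24.7 CPM in somatic late and at most 2.28 CPM in somatic early, and was not called. acal, known from dorsal closure, was higher in germ cells (2.89 ± 3.16 against 0.0632 ± 0.0954 CPM, edgeR adjusted p = 0.000726). asRNA:ASTR had between 30.4 and 65.5 CPM in somatic libraries but 0, 56.9 and 138 CPM in germ mid. The heat shock locus RNA alphagamma-element:CR32865 had 10.4, 3.45 and 109 CPM in somatic early, so its place among the members rests largely on 1 library. mimi and dntRL reached the threshold in germ mid alone, with 11.8, 1.26 and 3.03 CPM and 15.6, 0.84 and 10.4 CPM.

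3 named RNAs lie wholly within the exons of a protein-coding gene on the same strand, and their values moved between libraries of 1 group. SMRG, inside Tis11, had 54.8, 20.6 and 82.9 CPM in somatic late, 24.6, 0 and 0 CPM in somatic early and 27.1, 91.2 and 0 CPM in germ mid. Tis11 had 557, 517 and 649 CPM in somatic late, 288, 221 and 356 CPM in somatic early and 841, 408 and 226 CPM in germ mid. CRG, inside CASK, had between 6.27 and 33.8 CPM in all libraries but 1 germ library at 0. enrr, inside elav, the gene of a neuronal RNA-binding protein, had between 3.45 and 60.7 CPM. None of these was called.

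5 members at the threshold in 1 group alone had the highest mean there. They were asRNA:CR11538 (whole ovary mid), cherub (whole ovary early), asRNA:CR45831 in germ early with 18.6, 13.9 and 12.3 CPM, asRNA:CR46045 in germ mid with 15.0, 0 and 21.9 CPM, and lncRNA:CR44060 in somatic late with 20.1, 6.54 and 12.7 CPM. CR45831 overlaps Ppat-Dpck, CR46045 overlaps Tbc1d22 and CR44060 overlaps drongo, each on the opposite strand. For CR11538 and CR45831 all 3 libraries of that group were above every other library of the series. For CR46045 1 of the 3 was at 0, and for cherub and CR44060 the lowest was below a library of another group.

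Members and the genes that overlap them were compared over the 9 group means. For 180 members the gene with the largest exon overlap lies on the opposite strand, and 172 of these genes are protein-coding. In 144 pairs the partner was higher per kb, with a median ratio of 3.66. Pearson's r over the 9 group means (log2 of CPM + 1) was above 0 in 131 of 180 pairs with a median of 0.43. In the 22 pairs on the same strand the median ratio was 4.58 and the median r 0.57. Both genes of a pair are measured in the same libraries and share exon sequence, so that these correlations describe the counts and give no test.

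Of the 44 members called between germ and somatic cells over all stages, 25 had an overlapping gene and 24 of these genes were tested. 6 were called in the same direction, 2 in the opposite direction and 16 not at all. From mid to late in whole ovaries 11 of 16 called members had an overlapping gene, of which 5 were called in the same direction, none in the opposite one and 6 not at all. Lsp2 and CR11538 and CG13795 and CR46074 moved together, with r = 0.823 and 0.997. asRNA:CR44031 and Mpv17 did not (r = -0.42), nor did CR45939 and ftz-f1 (r = -0.78) or CR42491 and RpL22 (r = -0.65).

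**Figure D5:**
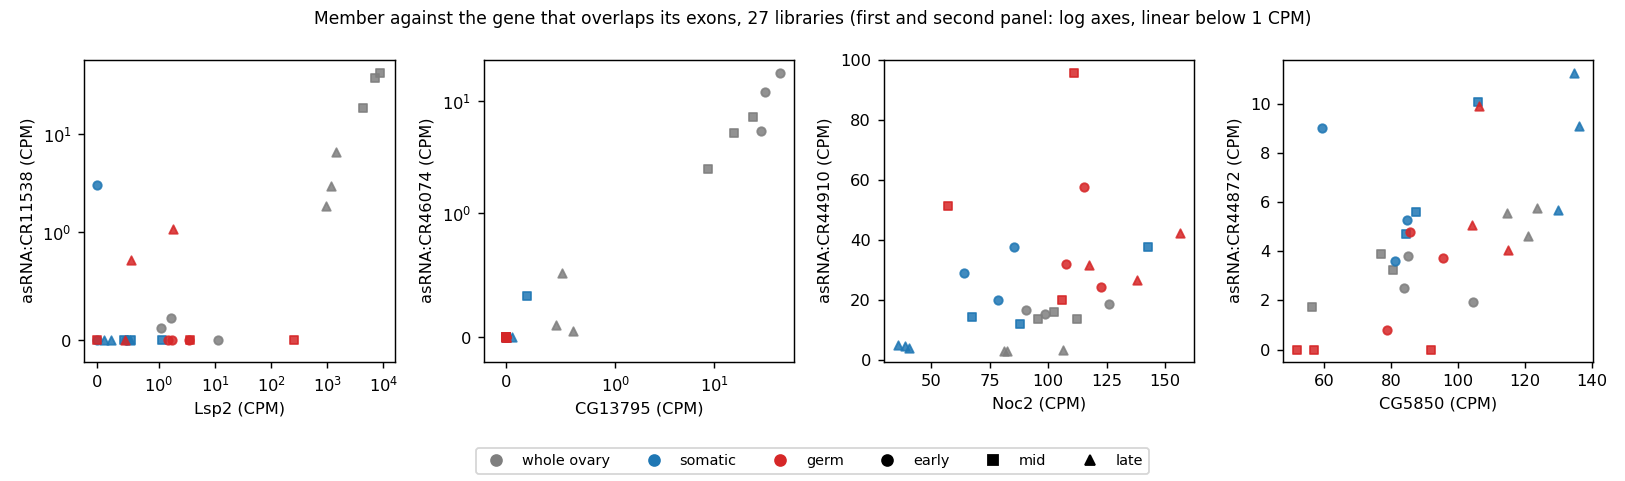
CPM of 4 members (y axis) against the CPM of the gene that overlaps their exons (x axis) in the 27 libraries, coloured by tissue and with a symbol per stage; the axes of the first and second panel are logarithmic above 1 CPM. CR11538 and CR46074 are high only in the whole ovary libraries where Lsp2 and CG13795 are high, the late somatic and late whole ovary libraries are the lowest for CR44910, and CR44872 is at 0 in the 3 germ mid libraries while CG5850 is not.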

How the data were processed

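RNA was measured in 27 libraries of the larval ovary, 3 for each of 9 tissue-and-stage groups, read as single ends of 50 bases after poly(A) selection. The authors deposited expected counts per gene (RSEM 1.3.3 after STAR 2.7.6a, annotation FlyBase r6.36), summed over runs, not normalized and listed as estimates that need not be whole. DESeq2 1.26.0 is also named in the submitters' processing notes. Totals per library, the floors worth 3 counts and the number of members with counts give the precision of a value, and floors cover counting error only.

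Counts were divided by the column sum for CPM. For tests they were rounded and fitted with edgeR 4.0.16 in R 4.3.3 (filterByExpr with a minimum count of 10 and a total of 15, TMM, robust quasi-likelihood fit), with Benjamini-Hochberg adjustment over all genes tested and a call at an adjusted p under 0.01. Whole ovary, somatic and germ libraries were fitted apart for stages, and all 18 sorted libraries together for tissues. The standard error is the log2 fold change divided by the square root of F. The edgeR fit was tested on simulated data for 4 of the comparisons, the change from early to mid in each tissue and germ against somatic cells over all stages.

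Names of 16206 of the 16257 gene identifiers were matched to FlyBase symbols. Positions, exons and overlaps came from an Ensembl 115 annotation of the Release 6 assembly, and genes with under 150 bases of exon were not counted as overlapping. Members and lists were chosen with earlier results of these data known. The members named are those of the function lists (RNAs with a name, hosts of miRNAs or snoRNAs, homeotic complex RNAs, roX and piRNA cluster RNAs), up to 6 with the smallest p in each direction of 7 comparisons, the 10 highest per kb, 3 on each side of the threshold and 5 that reached it in 1 group alone.

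Alternatives were DESeq2 1.42.0, RLE size factors, no filter, a replicate block, leaving out each library, members at 10 CPM, the rule on TMM-scaled CPM, and members without exon overlap. Replicate numbers were not used to pair the samples in the main fits. One germ cell marker was not used here.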

Additional observations from a re-analysis of the deposited data

Results flagged for a closer look

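The change of asRNA:CR44872 from mid to late differed between germ and somatic cells, by a test of the difference itself. The fitted difference in log2 change was 10.09 ± 1.61 (SE; edgeR quasi-likelihood test, adjusted p = 0.00946). It was not called with RLE size factors, with no filter on low counts or with a replicate block, and was lost in 13 of the 18 fits without a library. The RNA was at 0 in all 3 germ mid libraries and had 9.9, 5.08 and 4.04 CPM in the 3 germ late libraries, against 10.1, 5.61 and 4.69 CPM in somatic mid and 9.1, 11.2 and 5.67 CPM in somatic late. The fitted value rests on a group at 0, depends on the prior count and is no bound. CG5850, whose exons cover the RNA on the same strand, had 52.0, 57.0 and 91.9 CPM in germ mid and 106, 104 and 115 CPM in germ late, and its part in the difference was not tested.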

How the results depend on the processing

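No called log2 fold change of a named member changed sign under the alternatives run. The split of calls did change: in whole ovaries DESeq2 called 1 higher and 6 lower at mid than at early, and 19 higher and 19 lower at late than at mid. The cause of the changes below was not tested. DESeq2 called more members than edgeR in each comparison: 7 (early to mid) and 38 (mid to late) in whole ovaries, 15 and 11 in somatic cells, 22 and 10 in germ cells, 90 between the tissues over all stages, 38, 52 and 30 at early, mid and late, and 23 and 19 for the difference between tissues in the 2 changes. Among members chosen in other libraries it called 36 between the tissues and 6 and 34 in whole ovaries. Of all genes DESeq2 called 6.32% from early to mid in whole ovaries and 4.99% and 2.12% in germ cells. For the difference between tissues from early to mid it called 3.2%. No such share is given for the other comparisons, so the DESeq2 counts there are no result about members. The 1 member that differed between tissues from mid to late was not called with RLE size factors or with no filter, which gave 0.

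With a replicate block the counts were 0 and 9 in whole ovaries, 27 between the tissues over all stages, 7 at mid and 5 at late, 0 for the difference between tissues from mid to late, and 7 for members chosen in sorted cells from mid to late in whole ovaries. Deviations of same-numbered samples had mean correlations of -0.076 in germ and 0.008 in somatic fits. Those of other pairs were 0.021 and -0.004. These values give no ground for pairing the samples by number and do not exclude it.

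The 67 members without exon overlap gave 0 and 5 in whole ovaries and 0 and 1 in somatic cells. Between the tissues they gave 19 over all stages, with 5 at mid and 4 at late. Over all stages 25.3% of all tested genes were called. How many of the 67 were tested is not given, so no shares are compared. The 155 members at 10 CPM or more gave 1 from early to mid in somatic cells and 7 between the tissues at mid.

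Leaving out 1 library gave between 0 and 1 and between 3 and 35 calls in whole ovaries, between 0 and 4 and between 0 and 6 in somatic cells, between 0 and 7 and then 0 in germ cells, between 31 and 60 between the tissues over all stages, between 6 and 13, 5 and 20, and 4 and 16 at early, mid and late, and between 0 and 7 and between 0 and 11 for the difference between tissues. For members chosen in other libraries it gave between 16 and 32 between the tissues, and 0 and between 2 and 32 in whole ovaries. The count of 11 came without germ mid replicate 4. No share of all genes is given for the fits without a library, here or above. A rise or fall of these counts is therefore no result about members. Of the calls of named members, 68 held with DESeq2, 67 with RLE size factors, 66 with no filter and 49 with the replicate block, and 827 of the fits without a library kept their call against 199 that did not.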
